A study of Mus musculus with 3 samples.

Results

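The collagens described here are the 38 genes named Col, a type number, the letter a and a chain number, without the 6 genes of type IV collagen, out of 36593 genes in the 3 count tables. A somatic cell class held at least 1 UMI (1 captured transcript molecule) of 37 of them. The remaining gene, *Col10a1*, had 2 UMIs in germ cells of the control library. In all, 22 genes reached 50 UMIs in 1 somatic class of 1 library and are described by their levels, and 16 stayed below.

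Collagens are secreted or membrane proteins whose chains wind around each other into a helix, which needs the smallest residue, glycine, at the start of every Gly-X-Y triplet. Fibril-forming collagens such as types I, III and V build the fibres of connective tissue, fibril-associated types decorate them, type VI forms beaded filaments around cells, type VIII forms networks, and types XV and XVIII, the multiplexins, lie at basement membranes. Types XIII, XVII, XXIII and XXV span the cell membrane. In the testis, peritubular myoid cells wrap the seminiferous tubule in a contractile sheath and lay down part of its wall, and stromal cells fill the interstitium between tubules.

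The coding sequences of GENCODE release M21 (build GRCm38) gave 38 of 38 genes a Gly-X-Y run of at least 5 triplets in a row. The 11 fibril-forming genes had longest runs of 216 to 344 triplets. Runs in the 6 type VI genes were 37 to 87 triplets long, in the 9 fibril-associated genes 32 to 113, in the 4 transmembrane genes 40 to 55, in the 3 network genes 59 or 60, and in both multiplexins 30. The helix therefore covered 77.2% of the 1372 residues of *Col1a2* but 25.02% of the 1367 residues of *Col15a1*, which had 11 separate runs, and 58.9% of the 744 residues of *Col8a1*, which had 9. The start of the longest run is printed for the 4 genes on which the results turn, the most abundant chain, the leading type VI chain, and the genes with the lowest and the highest ratio between the genotypes in myoid cells. Each is 90 bases of coding exon sequence, 5′ to 3′, with the glycine codon of each of the 10 triplets in capitals.
Col1a2: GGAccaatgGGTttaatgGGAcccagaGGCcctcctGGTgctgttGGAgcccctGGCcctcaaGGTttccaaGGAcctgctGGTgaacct
Col6a1: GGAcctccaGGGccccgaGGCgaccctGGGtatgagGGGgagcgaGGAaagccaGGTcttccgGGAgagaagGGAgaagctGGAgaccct
Col8a1: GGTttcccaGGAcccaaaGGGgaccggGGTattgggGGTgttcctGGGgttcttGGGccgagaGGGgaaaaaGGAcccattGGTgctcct
Col15a1: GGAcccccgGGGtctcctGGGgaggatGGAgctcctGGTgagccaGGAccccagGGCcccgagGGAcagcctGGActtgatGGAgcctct
The genes lie at chr6:4504814-4541544 (*Col1a2*, plus strand), chr10:76708792-76726168 (*Col6a1*, minus strand), chr16:57624258-57754737 (*Col8a1*, minus strand) and chr4:47208161-47313167 (*Col15a1*, plus strand).

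Testis cells of C57BL/6 mice were read by droplet single-cell RNA sequencing in 3 libraries. The Tomato-negative library came from *Ddx4-creER; R26tdTomato* mice aged 8 weeks by the labels, in which tamoxifen marks germ cells red and the red cells had been sorted away. The control library came from *Scf fl/fl* mice and the cKO library from *Amh-cre; Scf fl/fl* mice, both 6 weeks old and both depleted of haploid spermatids by flow cytometry. Scf (*Kitl*) is stem cell factor, and Amh-cre acts in Sertoli cells, so control and cKO mice both carry the floxed alleles and differ by the Cre. Each library pooled 3 mice and stands alone in its group. No test across samples was therefore possible, every interval below is a 95% interval for counting error only, and differences between control and cKO cannot be told apart from differences between these libraries. In such sums, fewer transcripts per cell and fewer expressing cells cannot be told apart either, so shares of cells with a UMI stand beside the main levels.

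The tables held 195380762 UMIs in 7626 Tomato-negative cells, 90453018 in 6264 control cells and 68602272 in 7252 cKO cells. Pairs of libraries shared 9 to 15 cell barcodes. Keeping cells with 200 to 3500 genes and mitochondrial UMIs within 10% left 2159 Tomato-negative (28.3%), 3637 control (58.1%) and 4545 cKO cells (62.7%). The paper reports more control and cKO cells after its own quality control. Clusters were named by marker genes that hold no collagen. *Tcf21* stromal-like cells numbered 119 in the Tomato-negative library, 119 in control and 1592 in cKO, myoid-like cells 158, 615 and 1969, and vascular smooth muscle-like cells 243, 38 and 145. At the resolution and gene limit used, endothelial-like (64), Sertoli-like (357) and Leydig-like (29) clusters were found in the Tomato-negative library alone. At a resolution of 0.3 a Leydig-like cluster of 3 control and 47 cKO cells also separated. At the resolution used, a limit of 7500 genes per cell gave a Leydig-like cluster of 14 control and 229 cKO cells. Without an upper limit it held 5 and 179. The limit of 3500 genes thus left out most of these Leydig-like cells. No cluster of the control or cKO cells was Sertoli-like, so the deletion could not be checked in the cells where Amh-cre acts. In stromal-like cells the level of *Kitl* was 324 CPM in control (95% interval 269 to 388) and 322 CPM in cKO (310 to 335), a class that Amh-cre does not target. Levels are in CPM, the UMIs of a gene per 1000000 UMIs of the class. Because the kit counts 1 end per transcript, CPM does not grow with gene length.

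Collagens made up a larger part of the RNA in stromal-like and myoid-like cells than in any other class. Together the 38 genes reached 4373 CPM (95% interval 4204 to 4547) in stromal-like cells of the Tomato-negative library, 4492 CPM in control (4279 to 4713) and 3985 CPM in cKO (3942 to 4029). In myoid-like cells they reached 3295 CPM (3193 to 3399), 5079 CPM (5002 to 5158) and 3468 CPM (3434 to 3502) in the same order. The order of both classes therefore differed between libraries, with stromal-like cells higher in the Tomato-negative and cKO libraries and myoid-like cells higher in control. Vascular smooth muscle-like cells followed at 831, 1340 and 1812 CPM. Endothelial-like cells held 323 CPM and Sertoli-like cells 77.3 CPM. Germ cells held 172, 91.9 and 175 CPM, of which fibril-forming genes took 26.4, 20.5 and 75.3 CPM, and immune-like cells 103, 139 and 262 CPM. In 29 Leydig-like cells 2 collagen UMIs were found, or 41.7 CPM (5.05 to 151).

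**Figure D1:**
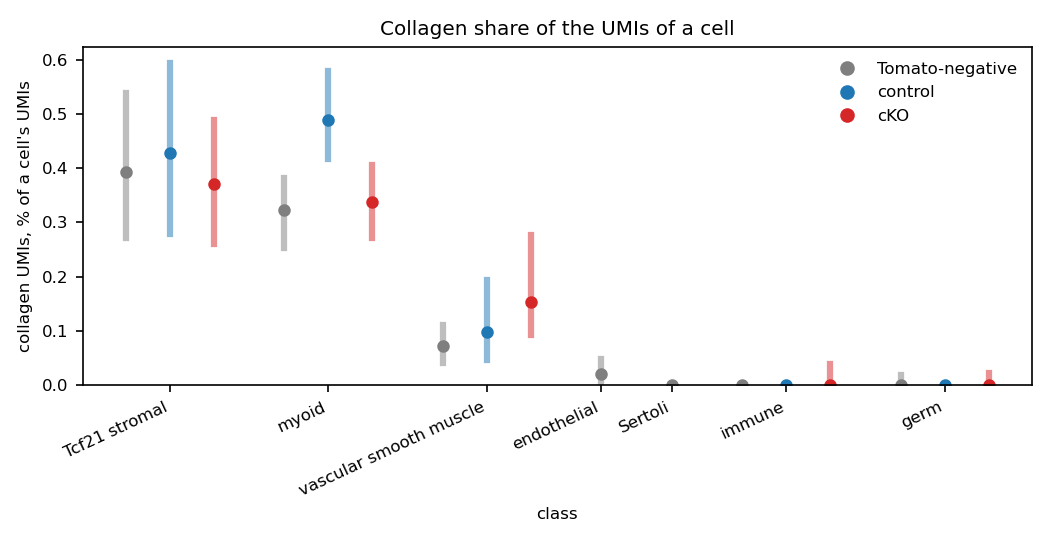
Collagen UMIs as a percentage of all UMIs of a cell (vertical axis) by class (horizontal axis) and library (colour); points are medians over cells and bars run from the 25th to the 75th percentile. The median myoid-like cell devoted 0.323% of its UMIs to collagens in the Tomato-negative library, 0.490% in control and 0.337% in cKO, against 0% for the median Sertoli-like, immune-like and germ cell.

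Fibril-forming genes made up most of these UMIs in stromal-like and myoid-like cells, and 35.2%, 44.9% and 57.1% of them in the vessel wall of the Tomato-negative, control and cKO libraries. Their share of the collagen UMIs was 70.9%, 70.4% and 69.7% in stromal-like cells of the Tomato-negative, control and cKO libraries and 63.7%, 69.9% and 66.3% in myoid-like cells. Type VI took 16.0% to 18.0% in stromal-like and 26.3% to 28.6% in myoid-like cells. Multiplexins took 8.61% to 9.91% in stromal-like cells, but 24.1% to 41.1% in vascular smooth muscle-like cells.

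**Figure D2:**
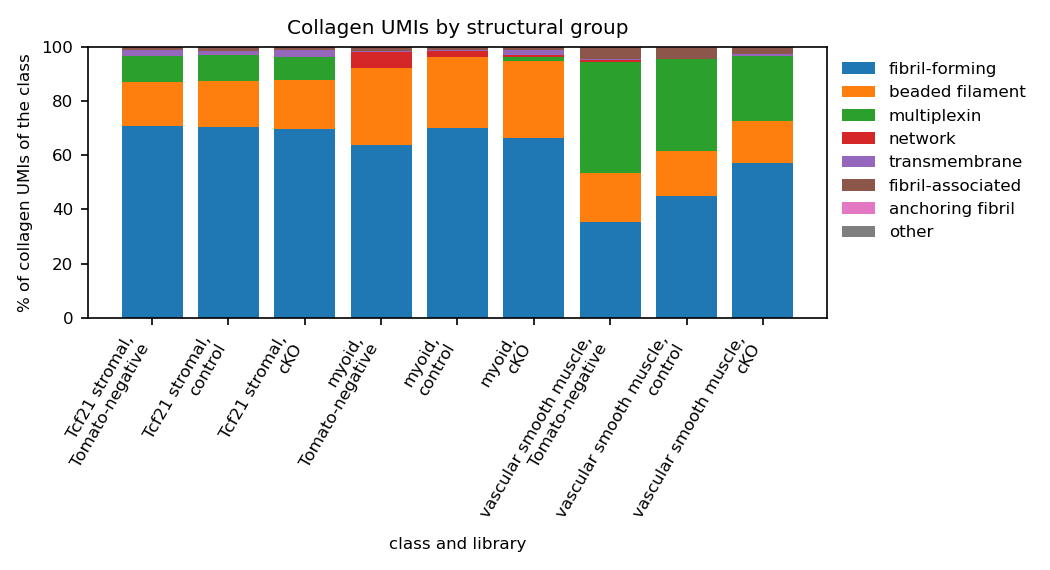
Percentage of the collagen UMIs of a class (vertical axis) that each structural group takes (colour), for 3 classes in 3 libraries (horizontal axis). Type VI (beaded filament) takes a larger part in myoid-like than in stromal-like cells of every library. Of these 3 classes, multiplexins take their largest part in vascular smooth muscle-like cells.

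*Col1a2* was the most abundant chain of the stromal-like and myoid-like cells of each library. *Col1a2*, the second chain type of type I collagen, stood at 1681 CPM (1577 to 1791) in stromal-like cells of the Tomato-negative library, 1542 CPM in control (1418 to 1674) and 1529 CPM in cKO (1502 to 1556), and at 1067, 1896 and 1251 CPM in myoid-like cells. It was detected in 86.6% to 96.2% of stromal-like and 99.4% to 99.8% of myoid-like cells, against 0.618% to 4.96% of germ cells. *Col1a1*, its partner, stood at 660, 613 and 482 CPM in stromal-like and 420, 826 and 498 CPM in myoid-like cells. *Col3a1*, the chain of type III collagen in elastic tissues, stood at 572, 802 and 650 CPM in stromal-like and 543, 750 and 489 CPM in myoid-like cells. Between the classes, *Col1a1* and *Col1a2* had ratios on both sides of 1. The stromal over myoid ratio of *Col1a2* was 1.58 (1.45 to 1.71) in the Tomato-negative, 0.814 (0.745 to 0.887) in the control and 1.22 (1.19 to 1.25) in the cKO library. For *Col3a1* it was 1.05 (0.920 to 1.20) in the Tomato-negative, 1.07 (0.945 to 1.21) in the control and 1.33 (1.28 to 1.38) in the cKO library, so its interval was above 1 in cKO alone.

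The ratio of the type I chains was higher in the vessel wall of the Tomato-negative and cKO libraries than in their other collagen-rich classes. UMIs of *Col1a2* over those of *Col1a1* came to 2.55 (2.26 to 2.87), 2.52 (2.15 to 2.95) and 3.17 (3.06 to 3.29) in stromal-like and 2.54 (2.29 to 2.82), 2.29 (2.19 to 2.40) and 2.51 (2.44 to 2.59) in myoid-like cells. In the vessel wall, the vascular smooth muscle-like class, it was 6.08 (4.51 to 8.34) in the Tomato-negative and 8.15 (6.10 to 11.1) in the cKO library, and 4.42 (2.33 to 9.08) in control, where it rests on 53 and 12 UMIs and the interval reached that of the other classes. The protein itself holds more of the *Col1a1* chain. Capture can differ between the transcripts, so the change of the ratio between classes, and not its size, is what these counts measure.

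*Col5a1* and *Col5a2* of type V, which joins type I fibrils and limits their width, were higher in stromal-like than in myoid-like cells of each library. *Col5a1* stood at 74.5, 97.2 and 57.2 CPM in stromal-like cells against 26.8, 27.8 and 25.9 CPM in myoid-like cells. Its stromal over myoid ratio was 2.78 (1.72 to 4.53), 3.50 (2.31 to 5.21) and 2.21 (1.90 to 2.56). *Col5a2* had ratios of 2.40 (1.51 to 3.83), 1.83 (1.14 to 2.84) and 2.09 (1.76 to 2.48). *Col5a3* stood at 20.8, 29.7 and 13.4 CPM in stromal-like cells and at 10.6, 32.7 and 93.96 CPM in the vascular smooth muscle-like class, the control value there resting on 5 UMIs. *Col27a1*, a fibrillar chain of cartilage, did not pass 18.8 CPM in any class.

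*Col6a1*, *Col6a2* and *Col6a4* of type VI were higher in myoid-like than in stromal-like cells of each library. *Col6a1* stood at 456, 730 and 583 CPM in myoid-like and 369, 505 and 494 CPM in stromal-like cells, and *Col6a2* at 193, 233 and 149 against 140, 124 and 103 CPM. The largest difference belonged to *Col6a4*, at 144, 171 and 126 CPM in myoid-like and 32.9, 37.8 and 30.4 CPM in stromal-like cells. Its stromal over myoid ratio was 0.228 (0.134 to 0.367), 0.221 (0.120 to 0.374) and 0.241 (0.209 to 0.276), intervals that overlap across the 3 libraries. *Col6a3*, the large chain of the filament, was also a gene of the vessel wall, at 121, 183 and 137 CPM in the vascular smooth muscle-like class, where *Col6a1* stood at 17.2, 13.1 and 56.4 CPM. There *Col6a1* over *Col6a3* was 0.141 (0.0899 to 0.214) in the Tomato-negative and 0.412 (0.280 to 0.595) in the cKO library, against 3.21 (2.70 to 3.84) and 4.43 (4.18 to 4.69) in myoid-like cells. *Col6a6* was found in stromal-like cells of cKO (64 UMIs, 7.95 CPM) with 0.355 CPM in its myoid-like cells.

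Type VIII chains were mainly found in myoid-like cells. *Col8a1*, a chain of the short-chain network found under vessel and corneal endothelium, stood at 143 CPM (122 to 166), 80.5 CPM (71.0 to 91.0) and 7.91 CPM (6.35 to 9.73) in myoid-like cells of the Tomato-negative, control and cKO libraries. Stromal-like cells held 0, 0 and 1 UMI of it, where 3 UMIs in control would give 8.10 CPM. *Col8a2*, its partner chain, stood at 47.8, 24.7 and 16.5 CPM in myoid-like cells, with 0, 0 and 0.993 CPM in stromal-like cells. Endothelial-like cells held 14.7 CPM of *Col8a1*.

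*Col15a1* and *Col18a1*, both multiplexins, had their highest levels in different classes. *Col15a1* stood at 371 CPM (323 to 424), 402 CPM (340 to 473) and 316 CPM (304 to 329) in stromal-like cells and at 7.55, 6.24 and 46.2 CPM in myoid-like cells. In endothelial-like cells it stood at 79.2 CPM. *Col18a1*, from which endostatin is cut, stood at 339, 451 and 379 CPM in the vascular smooth muscle-like class, at 147 CPM in endothelial-like and 40.9 CPM in Sertoli-like cells, and at 0.839, 2.50 and 2.49 CPM in myoid-like cells. In stromal-like cells *Col18a1* was also present, at 62.4, 29.7 and 26.9 CPM, the control value resting on 11 UMIs. The gene was detected in 79.0%, 78.9% and 73.1% of vascular smooth muscle-like cells and in 1.13%, 0.591% and 4.53% of germ cells, with median depths of 6294, 3650 and 4989 UMIs in the former and 6177, 4529 and 3099.5 in the latter.

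**Figure D3:**
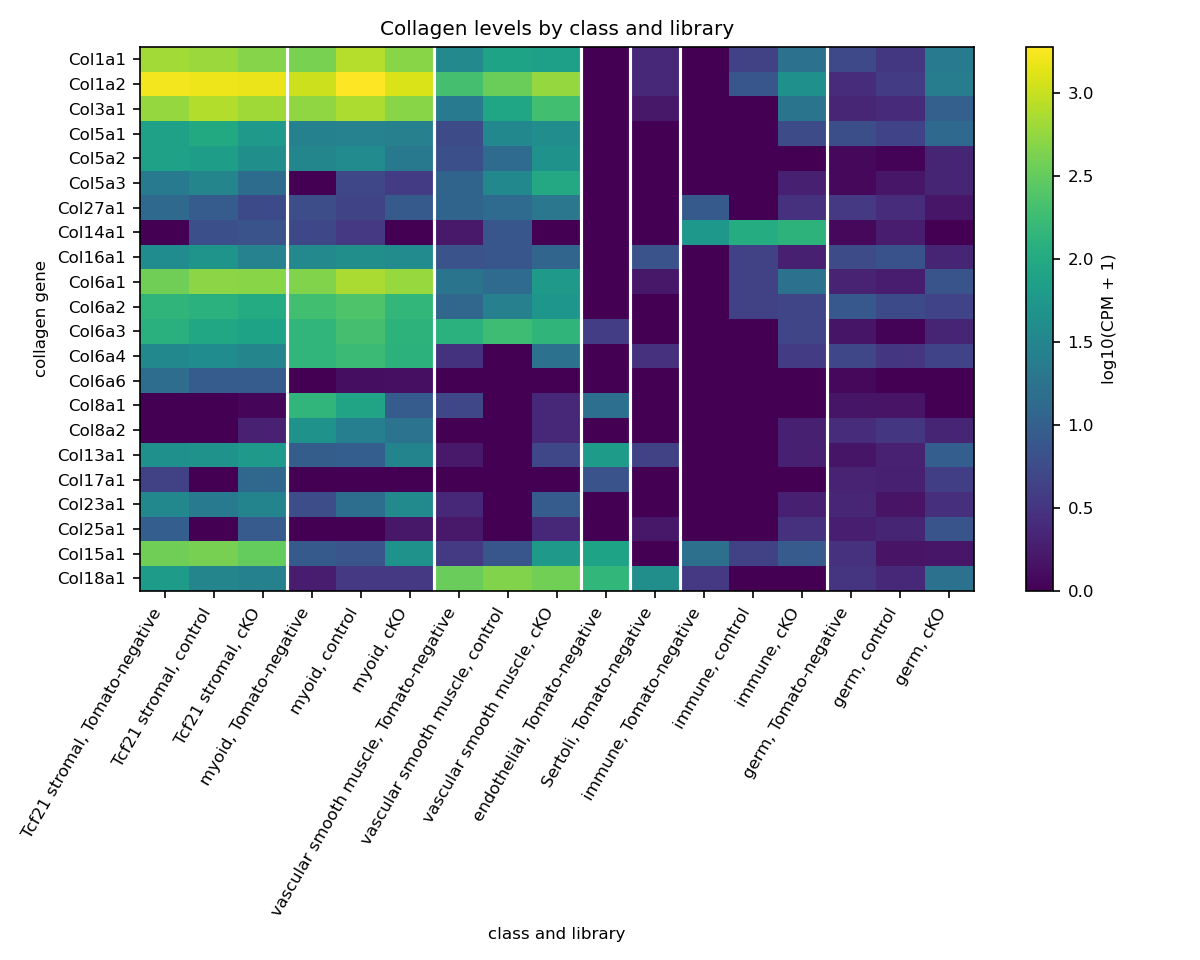
Levels of the 22 genes with at least 50 UMIs in 1 somatic class (rows), as log10(CPM + 1) (colour), in each class and library (columns, white lines divide classes). Col8a1 and Col8a2 are bright in myoid-like columns, Col15a1 in stromal-like columns, Col18a1 in vascular smooth muscle-like columns and Col14a1 in immune-like columns.

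The membrane collagens and the fibril-associated genes were less abundant. *Col13a1* stood at 43.3, 45.9 and 57.0 CPM in stromal-like cells and 61.6 CPM in endothelial-like cells. *Col23a1* stood at 32.9, 21.6 and 29.3 CPM in stromal-like and 5.03, 14.4 and 34.9 CPM in myoid-like cells. *Col16a1* stood at 38.1, 48.6 and 27.3 CPM in stromal-like and 34.4, 41.2 and 37.0 CPM in myoid-like cells, and its intervals held 1 in the Tomato-negative and control libraries. *Col14a1* was the only gene of the 22 with its highest level in immune-like cells in all 3 libraries, at 55.2 CPM (34.6 to 83.5), 106 CPM (72.2 to 149) and 132 CPM (111 to 156). It was detected in 9.29%, 18.3% and 30.5% of immune-like cells. *Col19a1*, named although it stayed below 50 UMIs, was found in vascular smooth muscle-like cells, with 36 UMIs in the Tomato-negative and 23 in the cKO library (23.7 and 30.9 CPM) and at most 1 UMI in any other somatic class of them.

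Counted over genes with at least 20 UMIs over the classes of a library, the class of the highest level was most often stromal-like or myoid-like. In the Tomato-negative library the stromal-like class was highest for 10 of 21 collagens, beside 13.7% of all genes, in control for 7 of 18, beside 22.2%, and in cKO for 9 of 27, beside 22.9%. Myoid-like cells were highest for 6 of 21, beside 14.9% of all genes, for 8 of 18, beside 24.1%, and for 8 of 27, beside 25.2%. Vascular smooth muscle-like cells were highest for 2 of 21, 2 of 18 and 8 of 27, a class whose share over all genes was not counted. In cKO the myoid-like count was thus no larger than that of the vascular smooth muscle-like class, and it was near the share of all genes. Not every lead was beyond counting error. The ratio to the next class excluded 1 for 6 of 10, 4 of 7 and 8 of 9 of the stromal genes. For the myoid genes it did so for 5 of 6, 7 of 8 and 7 of 8. Of 18 genes counted in all 3 libraries, 10 had the same highest class in each. Of 15 with enough UMIs for a stromal over myoid ratio in each library, the interval was above 1 everywhere for *Col5a1*, *Col5a2*, *Col13a1* and *Col15a1* and below 1 everywhere for *Col6a1*, *Col6a2*, *Col6a4*, *Col8a1* and *Col8a2*. These counts across libraries were not made over all genes, so they do not show whether such agreement is particular to collagens.

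Collagens of the cKO and control libraries were set side by side in myoid-like and stromal-like cells, the collagen-rich classes with 119 or more cells in both. In myoid-like cells the summed collagen level was 5079 CPM in control and 3468 CPM in cKO, a ratio of 0.683 (0.670 to 0.695). The Tomato-negative library, from other mice, stood at 3295 CPM, nearer to cKO than to control. Fibril-forming genes had a ratio of 0.647 (0.633 to 0.661), type VI genes 0.741 (0.715 to 0.768), network genes 0.232 (0.197 to 0.273), transmembrane genes 2.84 (2.23 to 3.66) and multiplexins 5.57 (3.81 to 8.47). Of 20 collagens with at least 20 UMIs over both libraries, the interval of the ratio was below 1 for 11, beside 21.2% of all genes, above 1 for 4, beside 11.9%, and held 1 for 5. The median log2 ratio was -0.59 for the collagens and -0.06 over all 13542 genes.

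Past 2-fold, with 0.5 added to each count, 3 of the 20 collagens were higher in cKO myoid-like cells, beside 4.43% of all genes, and 2 were lower, beside 7.34%. The higher genes were *Col15a1*, *Col13a1* and *Col23a1*, and the lower genes *Col8a1* and *Col11a1*. Among the abundant chains none passed 2-fold. The ratio was 0.602 (0.575 to 0.631) for *Col1a1*, 0.660 (0.641 to 0.680) for *Col1a2*, 0.653 (0.622 to 0.685) for *Col3a1*, and 0.799 (0.762 to 0.838) for *Col6a1*. *Col6a2*, *Col6a3* and *Col6a4* had ratios of 0.639, 0.654 and 0.738, and *Col5a2* of 0.543 (0.433 to 0.684). *Col5a1* (0.934, 0.734 to 1.20) and *Col16a1* (0.897, 0.736 to 1.10) had intervals that held 1. With the germ cell level subtracted, however, the log2 ratio of *Col5a1* went from -0.10 to -0.81, below its interval.

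*Col8a1* had the lowest ratio of the 20 collagens with at least 20 UMIs. Below that limit, *Col14a1* had 8 UMIs in control and 0 in cKO. The 258 UMIs of *Col8a1* in control and 89 in cKO gave 80.5 and 7.91 CPM, a ratio of 0.0982 (0.0763 to 0.125), or 10.2-fold lower (7.97 to 13.1). The gene was detected in 30.1% (26.5 to 33.9) of control and 3.76% (2.96 to 4.70) of cKO myoid-like cells, and with each cell thinned to 1000 UMIs in 5.69% and 0.660%. In the Tomato-negative library 58.2% (50.1 to 66.0) of myoid-like cells held a UMI. The highest share in germ cells was 0.309%. *Col8a2* stood at 24.7 and 16.5 CPM in control and cKO, a ratio of 0.670 (0.513 to 0.884), so the UMIs of *Col8a1* over *Col8a2* went from 2.98 (2.20 to 4.10) in the Tomato-negative and 3.27 (2.53 to 4.26) in the control library to 0.478 (0.367 to 0.619) in cKO. *Col11a1*, a minor fibrillar chain named after its values were seen, had 19 UMIs in control and 27 in cKO, a ratio of 0.405 (0.217 to 0.770).

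*Col15a1* had the highest ratio of the same 20 genes, and in stromal-like cells its ratio was on the other side of 1. Its 20 UMIs in control and 520 in cKO myoid-like cells gave levels of 6.24 CPM (3.81 to 9.64) and 46.2 CPM (42.3 to 50.4), and cKO over control was 7.40 (4.74 to 12.2). The Tomato-negative library stood at 7.55 CPM (3.45 to 14.3), near control. The gene was detected in 1.95% (1.01 to 3.38) of control, 16.6% (14.99 to 18.3) of cKO and 4.43% (1.80 to 8.92) of Tomato-negative myoid-like cells, and in at most 0.824% of germ cells. Thinned to 1000 UMIs a cell, the shares were 0.488% in control and 4.47% in cKO. In stromal-like cells the ratio was 0.785 (0.666 to 0.933). Vascular smooth muscle-like cells held 1 UMI in control and 43 in cKO, 6.54 and 57.7 CPM, a ratio of 8.83 (1.502 to 357). Limits of 7500 genes per cell or none lowered the log2 ratio in myoid-like cells from 2.85 to 1.78 and 2.06.

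Stromal markers moved with this result. The summed level of the 8 stromal markers in myoid-like cells was 1769 CPM in control, 2542 CPM in cKO and 1767 CPM in the Tomato-negative library. Of the 8, *Tcf21* stood at 184 and 364 CPM and *Pdgfra* at 200.4 and 328 CPM in control and cKO myoid-like cells. *Lum* and *Ly6a*, which also mark the stromal-like class, stood at 0 and 0.624 CPM in control and 0.355 and 0.267 CPM in cKO myoid-like cells, against 55.0 and 77.6 CPM in cKO stromal-like cells. A UMI of *Lum*, *Pdgfra* or *Tcf21* was found in 518 of 615 control and 1874 of 1969 cKO myoid-like cells. In the 97 and 95 cells without one, a choice made after seeing the data, the ratio was 1.68 (0.570 to 5.54) for *Col15a1* and also for *Col13a1*, each on 6 and 11 UMIs, 2.45 (0.910 to 7.64) for *Col23a1* and 0.178 (0.0670 to 0.407) for *Col8a1*. With each cell classed alone by its markers, the log2 ratio of *Col15a1* was 2.83. Germ cell markers also differed, with a summed level in myoid-like cells of 429 CPM in control and 28.8 CPM in cKO. The part of these shifts in markers in the ratios of the collagens was not tested.

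*Col13a1* and *Col23a1*, both membrane collagens, were also higher in cKO myoid-like cells. *Col13a1* stood at 8.43 CPM in control and 29.1 CPM in cKO, a ratio of 3.45 (2.33 to 5.31), and was detected in 3.90% and 14.0% of cells. Its level in germ cells also differed, being 1.01 CPM in control (0.520 to 1.76) and 8.44 CPM in cKO (4.61 to 14.2). *Col23a1* stood at 14.4 and 34.9 CPM, a ratio of 2.43 (1.79 to 3.38), with 7.32% and 17.2% of cells. Its level in germ cells was 0.503 and 1.81 CPM. In the Tomato-negative library *Col13a1* stood at 8.39 CPM and *Col23a1* at 5.03 CPM, below the cKO level. *Col27a1* had a ratio of 2.02 (1.10 to 4.06) but stayed under 2-fold once 0.5 was added to each count.

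**Figure D4:**
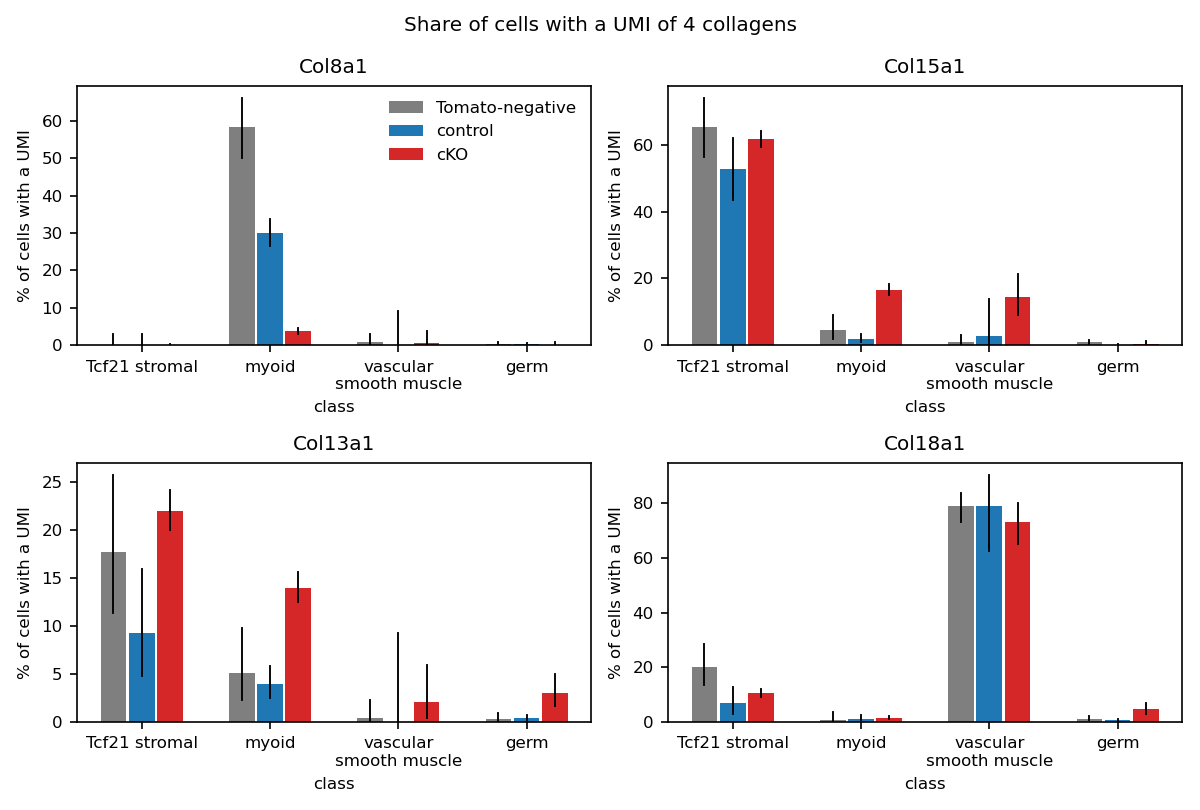
Percentage of cells with a UMI (vertical axis; bars, with black lines for the 95% Clopper-Pearson interval) of Col8a1, Col15a1, Col13a1 and Col18a1 in 4 classes (horizontal axis) of the Tomato-negative (grey), control (blue) and cKO (red) libraries. Col8a1 is found in 58.2%, 30.1% and 3.76% of myoid-like cells, and Col15a1 in 4.43%, 1.95% and 16.6%.

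In stromal-like cells the summed level of the collagens was nearer to equal between the genotypes than in myoid-like cells, a difference between classes that was not tested. It was 4492 CPM in control and 3985 CPM in cKO, a ratio of 0.887 (0.844 to 0.933). Of 21 collagens counted, the interval was below 1 for 7, beside 8.6% of all genes, above 1 for 1, beside 4.68%, and held 1 for 13. The median log2 ratio was -0.28, beside -0.11 over all 12290 genes. *Col1a2* (0.991, 0.911 to 1.08) and *Col6a1* (0.979, 0.845 to 1.14) were close to 1 with narrow intervals. *Col1a1* (0.785, 0.687 to 0.902), *Col3a1* (0.811, 0.721 to 0.914), *Col5a1* (0.589, 0.419 to 0.851), *Col5a2* (0.618, 0.411 to 0.968) and *Col16a1* (0.562, 0.347 to 0.966) were lower in cKO. Past 2-fold, 2 collagens were higher, beside 8.09% of all genes, and 2 were lower, beside 11.4%.

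Few UMIs lay behind these 4. *Col17a1*, the collagen of the hemidesmosome, had 0 UMIs in 119 control cells and 95 in 1592 cKO cells, which makes it at least 1.46-fold higher than the level that 3 UMIs in control would give. It was detected in 5.28% (4.23 to 6.49) of cKO stromal-like cells, in 1.08% (0.351 to 2.50) of cKO germ cells and in 1 of 119 Tomato-negative stromal-like cells. *Col25a1* had 0 and 63 UMIs, a level in cKO that lies under what 3 UMIs in control would give, so no fold is stated. Of the 994 genes past 2-fold higher in this class, 582 also had 0 UMIs in control. *Col5a3* was lower, with a ratio of 0.451 (0.242 to 0.931) on 11 and 108 UMIs, and so was *Col27a1*, with 0.552 (0.174 to 2.80) on 3 and 36 UMIs, an interval that held 1. Both moved when cells were thinned to 1000 UMIs, *Col5a3* to a log2 ratio of -0.32 and *Col27a1* to -2.24. The class also held Leydig markers at 386 CPM in control and 232 CPM in cKO and germ cell markers at 689 and 26.2 CPM. Endothelial markers stood at 399.8 and 183 CPM in it, and its own marker *Ly6a* at 608 CPM in 59.7% of control cells and 77.6 CPM in 17.8% of cKO cells. The part of these markers in the stromal ratios was not tested.

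Vascular smooth muscle-like cells numbered 38 in control, which limits this class. The summed collagens had a ratio of 1.35 (1.17 to 1.57) in it, above 1, where those of myoid-like and stromal-like cells were below 1. For fibril-forming genes the ratio was 1.72 (1.38 to 2.16). *Col3a1* stood at 85.0 CPM on 13 UMIs in control and 195 CPM in cKO, a ratio of 2.29 (1.30 to 4.40), and *Col1a2* at 346 and 569 CPM, a ratio of 1.64 (1.23 to 2.23). *Col5a3* (2.87, 1.17 to 9.13) and *Col6a1* (4.31, 1.12 to 36.8) were also higher, on 5 and 2 UMIs in control. *Col18a1* (0.839, 0.643 to 1.11) and *Col6a3* (0.748, 0.488 to 1.18) had intervals that held 1. In the other direction, *Col22a1* had 4 UMIs in control and 0 in cKO. The summed stromal markers in this class were 1111 CPM in control and 695 CPM in cKO. Among them, *Dcn* was found in 2.63% of control and 11.7% of cKO cells, at 327 and 114 CPM. Their part in these ratios was not tested. The Tomato-negative library stood at 21.1 CPM for *Col3a1* and 204 CPM for *Col1a2*.

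Genes that fold, trim, cross-link, degrade or bind collagen were counted from a list of 47. In myoid-like cells 3 of 37 with enough UMIs were past 2-fold higher, beside 4.43% of all genes, and 1 lower, beside 7.34%. In stromal-like cells 0 of 35 were higher, beside 8.09%, and 2 lower, beside 11.4%. The 16 hydroxylation and folding genes had 0 past 2-fold in either class. In myoid-like cells the ratio was 0.990 (0.939 to 1.04) for *Serpinh1*, the collagen chaperone of the endoplasmic reticulum. The interval was below 1 there for *P4ha1* (0.59998, 0.523 to 0.689) and *P4ha2* (0.509, 0.441 to 0.589), catalytic chains of prolyl hydroxylase, and for the lysyl hydroxylase *Plod2* (0.565, 0.503 to 0.636), genes chosen after their values were seen, and above 1 for *P4hb* (1.16, 1.06 to 1.27), *Plod1* (1.18, 1.01 to 1.40), *P3h3* (1.44, 1.13 to 1.86) and *Crtap* (1.38, 1.18 to 1.62). *Lox*, which starts the cross-links between chains, stood at 53.4 and 24.3 CPM in control and cKO myoid-like cells, a ratio of 0.455 (0.374 to 0.554). *Mmp2*, a gelatinase, stood at 2.18 and 9.95 CPM there, a ratio of 4.56 (2.14 to 11.6) that rests on 7 UMIs in control. The other higher genes, named after their values were seen, were *Loxl2* (2.73, 1.09 to 8.80), a relative of *Lox*, and *Itga10* (3.08, 1.34 to 8.71), a chain of a collagen receptor. In stromal-like cells *Loxl3* (0.425, 0.234 to 0.848) and *Itga1*, a chain of a collagen receptor (0.492, 0.285 to 0.923), were lower. The median log2 ratio of the list was -0.02 in myoid-like and -0.25 in stromal-like cells, beside -0.06 and -0.11 over all genes.

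Of the genes below 50 UMIs in every somatic class, some had most of their UMIs in germ cells and are named after their values were seen. *Col20a1*, a fibril-associated gene, had 344, 220 and 27 UMIs in germ cells of the Tomato-negative, control and cKO libraries, at 61.4, 18.4 and 16.3 CPM, and was found in 10.5%, 4.02% and 1.72% of them. In somatic classes its highest count was 7. *Col22a1*, a gene of tissue junctions, had 263, 246 and 36 UMIs there, at 46.9, 20.6 and 21.7 CPM, with at most 13 UMIs in a somatic class. Somatic classes hold fewer UMIs in all, so their levels lay closer to those of germ cells than the counts did. In control vascular smooth muscle-like cells 4 UMIs gave 26.2 CPM, above the germ cells of that library. Tomato-negative immune-like and Sertoli-like cells stood at 10.0 and 8.44 CPM, on 4 and 13 UMIs. *Col2a1*, the fibrillar collagen of cartilage, stood at 7.49, 4.02 and 3.01 CPM, *Col9a3* at 3.75, 4.86 and 5.42 CPM and *Col11a2* at 3.39, 2.85 and 1.21 CPM in germ cells. These values come from 971, 2709 and 464 germ cells.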

How the data were processed

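The authors deposited gene-by-cell tables of UMI counts, made with Cell Ranger 2.1.1 on GRCm38 from Chromium 3′ libraries, and reported Seurat 3.1 for their own clustering. Of the merged somatic table (33447 genes, 14039 cells), the 7626 Tomato-negative cells were used. Its other 6264 cells with the control barcodes held 0 values that differ from the control table, and 149 cells with cKO barcodes differed in 5448 values and were left out.

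Here, cells were kept if 200 to 3500 genes were detected and mitochondrial UMIs stayed within 10%, and were clustered in Seurat 5.3.0 on variable genes without the collagens (15 components and resolution 0.3 for the Tomato-negative library, 20 integrated dimensions and resolution 0.5 for control with cKO, and resolution 0.08 for somatic cells). Clusters were named by the highest summed marker score with at least 3 markers detected in 10% of cells. Cells that scrublet (scanpy 1.11.5) called doublets, 4.31%, 3.42% and 4.62% of the Tomato-negative, control and cKO libraries, were left in. Counts were summed per class. Levels carry exact Poisson, shares Clopper-Pearson and ratios exact conditional binomial 95% intervals, for counting error only. Genes with at least 20 UMIs were compared, and those with at least 50 in 1 somatic class of at least 30 cells were named. Counts were also simulated with Poisson counting error alone, the error that the interval assumes, and without variation between cells or libraries. On these counts the interval held the true ratio for 96.2% of 13342 unchanged genes in myoid-like cells. For genes made 4-fold lower (a ratio of 0.25) it held it for 90% of 50. The collagens and gene lists were chosen with earlier results of these data known. Alternatives covered the gene limit, doublets, classing, resolution, free RNA, scaling, depth and count minimum.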

Additional observations from a re-analysis of the deposited data

Results flagged for a closer look

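*Col15a1* had a ratio of cKO to control of 7.40 in myoid-like cells and 0.785 in stromal-like cells, on opposite sides of 1, and the difference between the classes was not tested.

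In germ cells of the control library, which enter no comparison of the somatic classes, *Col2a1* stood at 4.02 CPM (95% interval 2.97 to 5.33), *Col9a3* at 4.86 CPM (3.69 to 6.28) and *Col20a1* at 18.4 CPM (16.1 to 21.0). Each was above the level that 3 UMIs in these cells would give, 0.251 CPM.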

How the results depend on the processing

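No paired analysis was possible because each group has 1 library, and for the same reason no replicate could be left out. No sum and no gene past 2-fold changed sign. Of the ratios of named genes under 2-fold, 9 had another sign under at least 1 alternative, in 15 cases over all alternatives. Among them were *Col5a3* in myoid-like cells (-0.64, and 0.98 when thinned to 1000 UMIs) and *Col18a1* in myoid-like (-0.07, and 0.55 without a gene limit) and stromal-like cells (-0.20, and 0.41 with cells classed alone). In myoid-like cells the log2 ratio of the summed collagens was -0.55 and went to -0.52 with a limit of 7500 genes and to -0.58 with the germ cell level subtracted. The 3 collagens higher there became 5 with at least 5 UMIs, and the 2 lower became 4 with the germ cell level subtracted, 1 with at least 50 UMIs and 8 with at least 5. In stromal-like cells the 2 higher became 1 without a gene limit, 1 with the germ cell level subtracted and, chosen after seeing the data, 1 where the interval also had to exclude 1. The 2 lower became 4 with the germ cell level subtracted, 1 with at least 50 UMIs, 5 with at least 5, and 1 where the interval had to exclude 1. The 2 lower genes of the maturation and turnover list became 1 with a limit of 7500 genes and 1 with cells classed alone. Among alternatives planned at the outset, with each ratio counted once per alternative, 13 ratios of named genes moved past their interval and 291 did not. Of the levels, counted in the same way, 27 moved and 386 did not. *Col8a1* in myoid-like cells stayed between -3.37 and -3.19, apart from 1 choice made after seeing the data. In the myoid-like cells without a UMI of *Lum*, *Pdgfra* or *Tcf21*, its log2 ratio was -2.41, on 36 UMIs in control and 7 in cKO. *Col17a1* in stromal-like cells went from 3.13 to 0.85 without a gene limit, and *Col25a1* from 2.55 to 0.26 when thinned to 1000 UMIs. The causes were not tested. With 7500 genes, myoid-like cells fell into 1 cluster of 35 control and 2082 cKO cells and another of 619 and 7. In the stromal-like class of control 3 UMIs equal 8.10 CPM, and in its vascular smooth muscle-like class 19.6 CPM.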
